A study of Mus musculus with 2 samples.

Results

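Hox, Pax, Gata, Lhx and Fox genes encode DNA-binding proteins that specify body position and cell lineage, and their signals were examined on 2 microarrays of mouse embryonic stem (ES) cells, cell lines from the early embryo that self-renew and can form all tissues of the body. The genes were chosen by name, with earlier results of these data known. A probe set belonged when the array annotation gave it exactly 1 symbol, made of Hoxa, Hoxb, Hoxc, Hoxd, Pax, Gata or Lhx and a number, or of Fox, a letter and a number. This took 128 of 22626 non-control probe sets and 86 of 12393 genes, namely 31 Hox, 8 Pax, 6 Gata, 8 Lhx and 33 Fox genes. RNA of Id1-/- ES cells was hybridised to 1 array and RNA of wild-type ES cells to the other, both cultures grown on gelatin with serum and leukaemia inhibitory factor (LIF), which are conditions of self-renewal. The labels do not name the ES line, the clone, its sex or the part of Id1 that was removed. The study asked what Id1, a helix-loop-helix protein that lacks a DNA-binding domain, does in self-renewal.

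Hox genes lie in clusters and mark position along the body axis, Pax and Lhx genes pattern the eye, brain, spinal cord, muscle and glands, and Gata genes drive blood, heart and endoderm. Fox genes share the forkhead DNA-binding domain but not a role: some open chromatin in single lineages, whereas others act in the cell cycle or in insulin signalling in most cells. In ES cells many of these lineage genes are known to be held silent under Polycomb marks, and a few, such as Foxd3, are part of the pluripotent state.

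With 1 array per genotype there was no replicate, so no test between genotypes could be made, no p-value is given, and culture, clone and array cannot be told apart from genotype. Values are the deposited linear intensities of the brightest probe set of each gene. Differences are log2, knockout minus wild type, after each array was centred on its median. A reading of at least the array median (155.0 for the knockout, 152.5 for the wild type) is called above background, and a gene passed the brightness filter when at least 1 array reached that level. Values under the floor (48.4 and 47.6, the 25th percentile) were set to it before a difference was taken. A probe set's signal depends on its own probes, so the order of intensities between genes is not an order of transcript levels, and a signal in the culture as a whole cannot tell fewer expressing cells from less RNA per cell.

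Id1 read 461 in the knockout against 1045 in the wild type (2.30-fold lower), and the signal left in the knockout stayed above its array median. All 12 ES cell markers were above background on both arrays (against 51.8% of all genes), with Pou5f1 at 6834 and 8636 and Sox2 at 4032 and 4526. Of the 12, 3 were at least 2-fold lower in the knockout, against 3.92% of all genes past the filter. They were Nanog (2.51-fold), Esrrb (2.74-fold) and Klf4 (5.21-fold). Of markers of other cells, above background on both arrays were 2 of 9 for fibroblasts (summed intensity 764 in the knockout against 826 in the wild type), 1 of 8 for primitive and visceral endoderm (808 and 816), 2 of 6 for trophoblast (939.9 and 1249), 2 of 5 for neural cells (1175 and 789.5) and 2 of 7 for mesoderm and blood (717 and 892). These counts, too, stand beside 51.8% of all genes. The neural sum was higher in the knockout through Nes (732 against 336), and the part of cells of other types in the lineage factor signals was not tested. Where several probe sets of a gene passed the filter (2567 genes), their log2 differences had a median SD of 0.22. This is disagreement between probe sets on the same 2 arrays. It does not hold the error between arrays, which could not be measured.

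Most of the lineage factors gave no signal above background in either culture. Of the 86 genes, 69 (80.2%) were below the array median on both arrays, against 40.5% of all genes on the array, and 33 (38.4%) were below the floor on both, against 15.0% of all genes. Above background on both arrays were 14 genes (16.3%, against 51.8% of all genes), and 11 of these were Fox genes. Pax8 and Pax9 were above it in the knockout only and Gata1 in the wild type only. Signals of the 69 genes ran from 1.03 to 134.7 in the knockout (median 32.2) and from 5.01 to 152.2 in the wild type (median 41.5). Olfactory, vomeronasal and taste receptor genes, which ES cells are not known to use, served as a reference for silent genes. Their 70 probe sets had medians of 42.5 and 48.2, interquartile ranges of 13.1 to 74.1 and 13.5 to 93.3, and 95th percentiles of 135 and 184.

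The same receptors show how far the array median can be taken as a sign of expression. Of 66 receptor genes, 7 (10.6%) reached it on at least 1 array, and 1 did on both. Among the lineage factors that are not Fox genes, 6 of 53 (11.3%) reached it on at least 1 array, and 3 did on both. Among Fox genes, 11 of 33 (33.3%) reached it, all 11 on both arrays. Over all genes, 7369 of 12393 reached it on at least 1 array. These shares are not like for like, since the brightest probe set stood for a gene and the number of probe sets differed. Fox genes had 55 probe sets for 33 genes, the other lineage factors 73 for 53 and the receptors 70 for 66. Of the Fox genes with 1 probe set, only Foxd3, Foxn2 and Foxn4 reached the level.

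**Figure D1:**
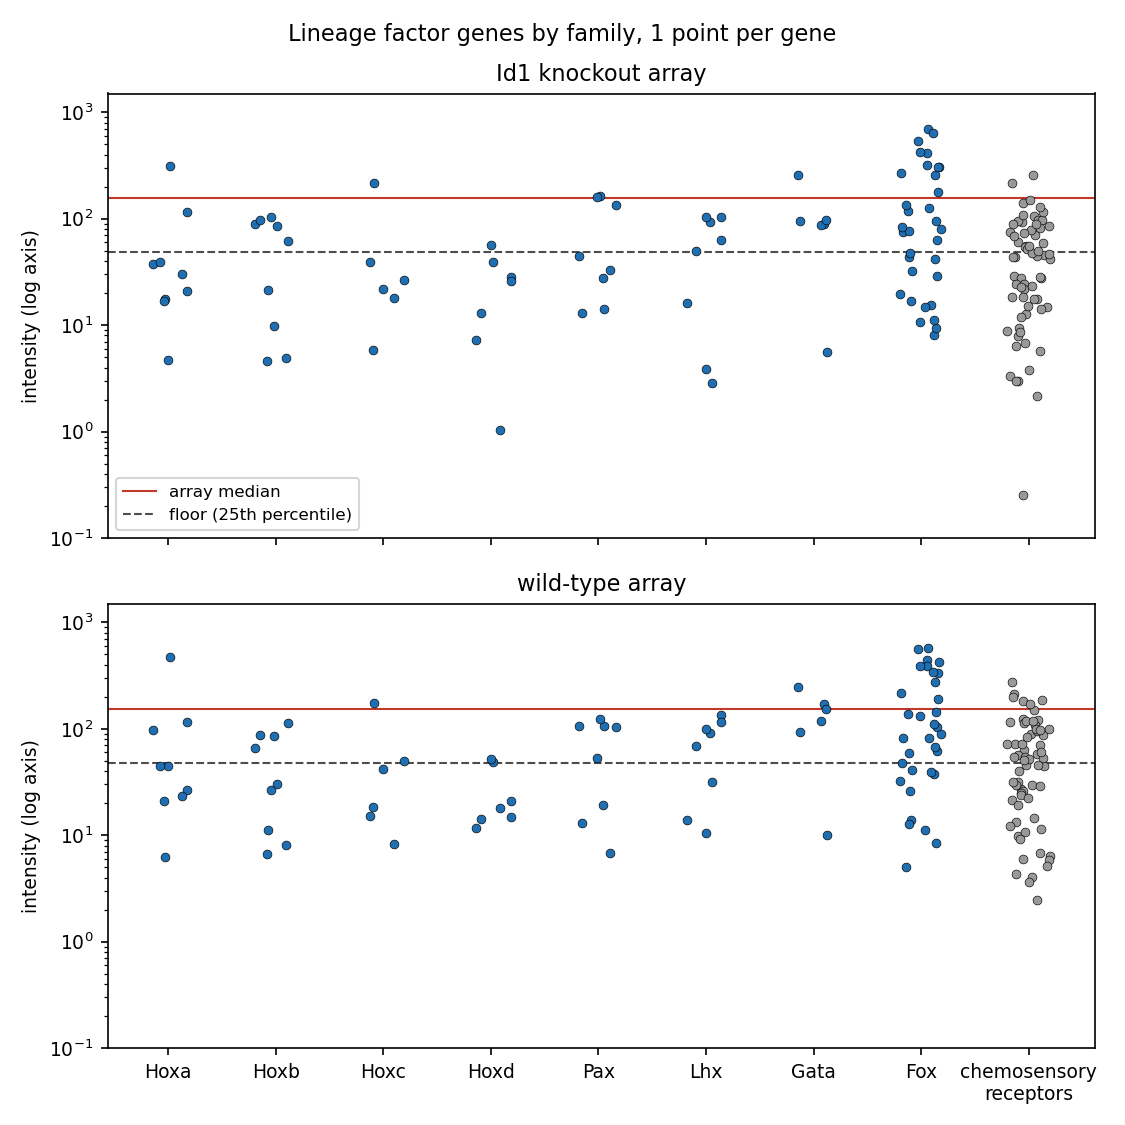
Intensity (log axis) of the brightest probe set of each gene by family for the knockout (top) and the wild type (bottom), 1 point per gene and 1 array per genotype, with 66 chemosensory receptor genes as a reference; points are spread sideways only to be seen. Fox is the family with the most points over the array median (red line, 155.0 and 152.5), and Hoxb, Hoxd and Lhx have none.

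Hox genes, which encode the homeodomain proteins of axial patterning, had the lowest median signal of the 5 families on both arrays. Of 31 measured, 29 were near background on both arrays and 18 were below the floor on both, and the median over the 31 was 26.7 in the knockout against 26.8 in the wild type. In the Hoxa cluster on chromosome 6, Hoxa2, Hoxa3, Hoxa4, Hoxa5, Hoxa7 and Hoxa10 were below the floor on both arrays, Hoxa11 read 116 on both (115.7 and 115.6) and Hoxa13 read 37.8 in the knockout against 97.7 in the wild type. In the Hoxb cluster on chromosome 11, all 9 genes were near background: Hoxb3, Hoxb5 and Hoxb13 lay below the floor on both arrays, and Hoxb1, Hoxb2, Hoxb4, Hoxb6, Hoxb7 and Hoxb9 reached at most 103 in the knockout against 113 in the wild type. Hoxb1, a hindbrain gene that retinoic acid is known to induce early, read 88.7 and 65.6. In the Hoxc cluster on chromosome 15, Hoxc4, Hoxc5, Hoxc8 and Hoxc13 lay below the floor on both arrays, and Hoxc9 read 26.7 and 49.4. In the Hoxd cluster on chromosome 2, Hoxd1, Hoxd8, Hoxd10, Hoxd12 and Hoxd13 were below the floor on both arrays, and Hoxd9 (56.3 and 51.6) and Hoxd11 (38.99 and 49.2) lay close to it.

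Among paralogues 1 to 4, which pattern the hindbrain and neck, 0 of 9 genes were above background, with medians of 28.1 in the knockout against 26.8 in the wild type. Among paralogues 5 to 8 of the trunk, 1 of 9 was above it (medians 21.7 and 23.6), and among paralogues 9 to 13 of the lower trunk and limbs, 1 of 13 was (medians 37.8 and 44.7). The 2 Hox genes above background on both arrays were Hoxa9 and Hoxc6, and for both the signal depended on the probe set. Hoxa9, a factor of posterior identity and of blood progenitors, had readings of 313 (knockout) and 469 (wild type) from 1 probe set (log2 difference -0.61), and 7.17 and 8.81 by the other. Hoxc6, a thoracic and forelimb-level gene, read 217 and 175 with its brightest probe set and 190.4 and 164 with a second one, whereas the third gave 10.2 and 6.25. The second and the brightest differed by less than 0.22 (log2 0.19 and 0.29). The brightest carries a suffix that marks probes which may also match other transcripts, and the second does not. With Hoxa9 lower and Hoxc6 higher in the knockout, and both under 2-fold, the pair had no common direction.

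**Figure D2:**
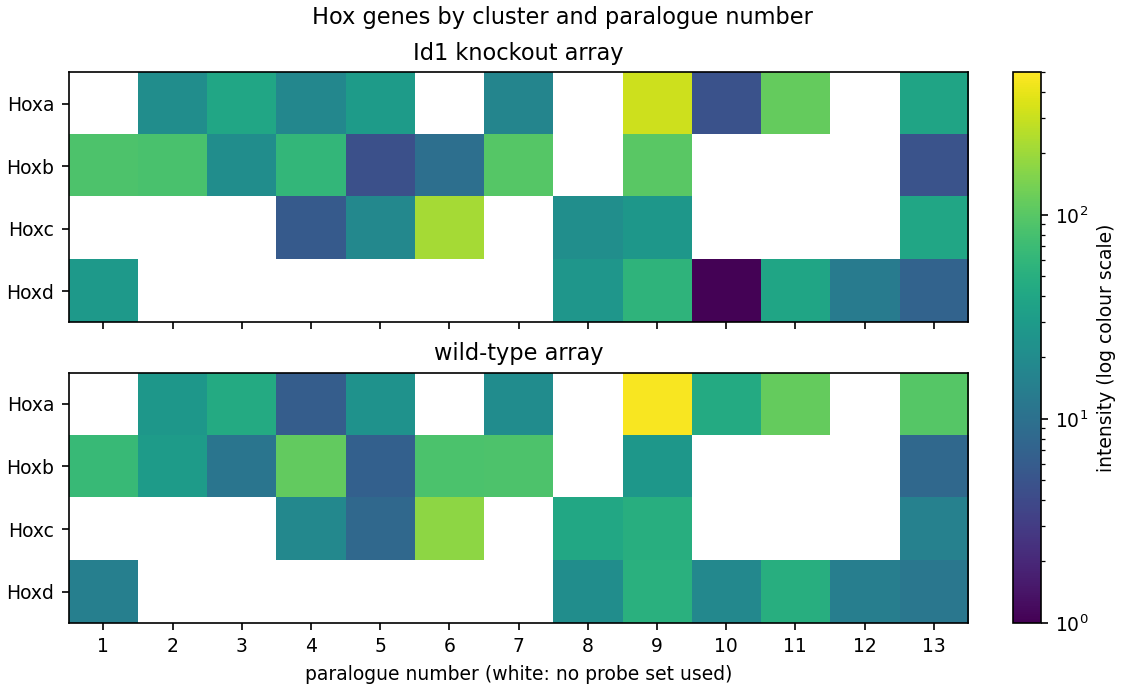
Intensity (colour, log scale) of the brightest probe set of each of 31 Hox genes, by cluster (rows) and paralogue number (columns), for the knockout (top) and the wild type (bottom); white marks genes without a probe set of their own here. Hoxa9 (313 and 469) and Hoxc6 (217 and 175) stand out, and the dimmest square is Hoxd10 on the knockout array (1.03).

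Pax genes encode paired-domain factors of the eye, muscle, vertebrae and glands, and none of the 8 was above background on both arrays. Pax8, a thyroid and kidney factor, read 165 in the knockout against 124 in the wild type (1.31-fold higher), close to the level on either side. Pax9, a factor of the pharyngeal pouches, teeth and vertebrae, read 161 in the knockout against 53.6 in the wild type, which is 2.95-fold higher. It was the only lineage factor past 2-fold among the 17 that passed the brightness filter (5.88%, against 3.92% of 7369 genes that were at least 2-fold higher). Its knockout value lay just over the array median and its wild-type value just over the floor of 47.6. Its second probe set went the other way, at 33.6 in the knockout against 76.0 in the wild type, both near background. With the floor at the 40th percentile, or with the median over both probe sets, Pax9 was not past 2-fold (log2 0.66 and 0.18). Pax6, the eye and forebrain factor, was near background by all 5 of its probe sets, the brightest reading 135 and 105. Pax1, Pax4 and Pax5 lay below the floor on both arrays, and Pax3 (14.2 and 107) and Pax7 (44.9 and 105), factors of neural crest and muscle precursors, lay below it in the knockout only.

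Gata genes encode zinc finger factors that bind the GATA motif. Gata2, a factor of blood progenitors, was above background on both arrays at 259.9 in the knockout against 247 in the wild type (log2 difference 0.05), but its other probe set read 8.32 and 40.5. Gata1, the factor of red blood cells and platelets, read 88.5 in the knockout against 171 in the wild type, 1.97-fold lower and the largest decrease among the 17 genes past the filter, just short of 2-fold. Gata1 lies on the X chromosome, where the knockout was lower for 197 of the 238 genes that passed and the median log2 difference was -0.55, so its value moved with the chromosome, and the part of that shift in it was not tested. Gata4 (87.3 and 118) and Gata6 (94.7 and 92.7), the drivers of primitive endoderm, were near background by both probe sets of each gene. Gata5, an endoderm and heart gene, read 97.6 in the knockout against 152.2 in the wild type, directly under the wild-type level of 152.5. Gata3, a factor of T cells and trophoblast, lay below the floor on both arrays at 5.65 and 9.95.

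Lhx genes encode LIM-homeodomain factors of motor neurons, forebrain, pituitary and gonad, and all 8 were near background on both arrays. The highest values were those of Lhx3, a factor of pituitary and motor neurons (103 in the knockout against 135 in the wild type), Lhx9 (105 and 100.2), Lhx6 (63.6 and 117) and Lhx4 (93.2 and 90.5). Lhx5 read 49.98 and 69.1. Lhx1, Lhx2 and Lhx8 lay below the floor on both arrays.

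The 11 Fox genes above background were Foxd3, Foxh1, Foxj3, Foxk1, Foxk2, Foxm1, Foxn2, Foxn4, Foxo1, Foxo3 and Foxp1. Foxd3, a forkhead repressor needed in the epiblast and in ES cells, had a single probe set and read 317 in the knockout against 446 in the wild type, 1.43-fold lower. Foxh1, the partner of SMAD proteins in Nodal signalling, read 413 in the knockout against 388 in the wild type by its brightest probe set (log2 difference 0.07). Its other probe sets read 564 against 251 and 268 against 114, log2 differences of 1.14 and 1.21, so 2 of 3 probe sets were past 2-fold higher and the brightest was not. The probe set with 564 carries the suffix that marks probes shared with other transcripts. On Foxh1 the probe sets thus disagreed by far more than the usual 0.22 between probe sets of a gene.

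Foxp1, a forkhead repressor that has an ES cell-specific splice form, was higher in the knockout by most of its probe sets. It read 645 in the knockout against 345 in the wild type by its brightest probe set (1.84-fold higher, log2 difference 0.88). Of its 7 probe sets 6 passed the filter, and 5 of those were higher in the knockout, with log2 differences of 0.42, 0.77, 0.88, 1.00 (1.99-fold) and 1.22, the last of them past 2-fold. The sixth read 265 and 275 (log2 difference -0.08), and the seventh was near background at 40.8 and 79.8. Taking the median over all 7 probe sets on each array gave 1.21-fold. Foxp1 probe sets reach different parts of a gene with several starts and splice forms, and they share 1 RNA sample per genotype, so they are not replicates.

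The remaining Fox genes above background differed by less than 1.5-fold between the arrays by their brightest probe sets, Foxn2 the most. Foxo3, a factor restrained by insulin and AKT signalling, read 689.9 and 578 (log2 difference 0.23), with -0.33 for its second probe set and the third near background. Foxo1, of the same group, read 305 and 334 (log2 difference -0.16), and its other passing probe sets gave 0.47 and 0.24. Foxk2, a widely expressed repressor, read 536 and 556 (-0.08), with 0.45 and 0.44 for its other probe sets. Its relative Foxk1 read 179 and 192 (-0.12), but its second probe set lay below the floor on both arrays at 31.4 and 46.0. Foxm1, an activator of mitotic genes, read 272 and 218 (0.29) and had a second passing probe set at -0.01 and a pair of others below the floor. Foxj3 read 425 and 391 (0.10), with its second probe set near background at 101 and 86.2. Foxn2 read 303 and 421, 1.41-fold lower, and Foxn4, a factor of retina and spinal interneurons, 259.5 and 277 (-0.12). Each of the last pair had a single probe set.

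The other 22 of 33 Fox genes were near background on both arrays. Of the Foxa factors that open chromatin in endoderm, Foxa2 read 118 in the knockout against 137 in the wild type, Foxa3 75.4 and 81.7, and Foxa1 lay below the floor on both arrays. Foxc1 (62.8 and 62.3), Foxc2 (10.6 and 132) and Foxf2 (43.9 and 58.6), genes of mesoderm and mesenchyme, were near background, as were Foxb1 (94.7 and 145), Foxb2 (28.7 and 105), Foxi1 (11.2 and 112), the cilia factor Foxj1 (80.6 and 88.8), Foxj2 (133.6 and 5.01), the thymus factor Foxn1 (127 and 82.4), Foxp2 (76.4 and 12.8), the regulatory T cell factor Foxp3 (41.6 and 67.6) and Foxq1 (84.1 and 48.1). Foxd1, Foxd2, Foxd4, Foxe3, Foxf1, Foxl1 and Foxo4 lay below the floor on both arrays along with Foxa1. Closest under the background level were Gata5, Foxb1, Foxa2, Lhx3, Pax6, Foxj2, Foxc2 and Foxn1, and just over it were Pax9 and Pax8 in the knockout, Gata1 in the wild type, and Hoxc6 and Foxk1 on both arrays.

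Among the 17 genes past the filter the genotypes differed little. In the knockout 9 were higher and 8 lower, with a median log2 difference of 0.05, against -0.01 over all 7369 genes past the filter. Under 1.5-fold were 13 of 17 (76.5%), against 78.0% of all genes past the filter. The largest increases were Pax9 (log2 1.56), Foxp1 (0.88) and Pax8 (0.39), and the largest decreases Gata1 (-0.98), Hoxa9 (-0.61) and Foxd3 (-0.52). No gene was at least 2-fold lower, against 3.92% of all genes past the filter. Counted by probe set, 4 of 31 that passed were at least 2-fold higher (12.9%, against 4.20% of 11205 probe sets) and none was 2-fold lower (against 3.88%). The 4 belong to 3 genes, Foxh1 with 2, Foxp1 and Pax9. Of the 12 genes past the filter that had several probe sets, 10 had at least 1 that was near background on both arrays.

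**Figure D3:**
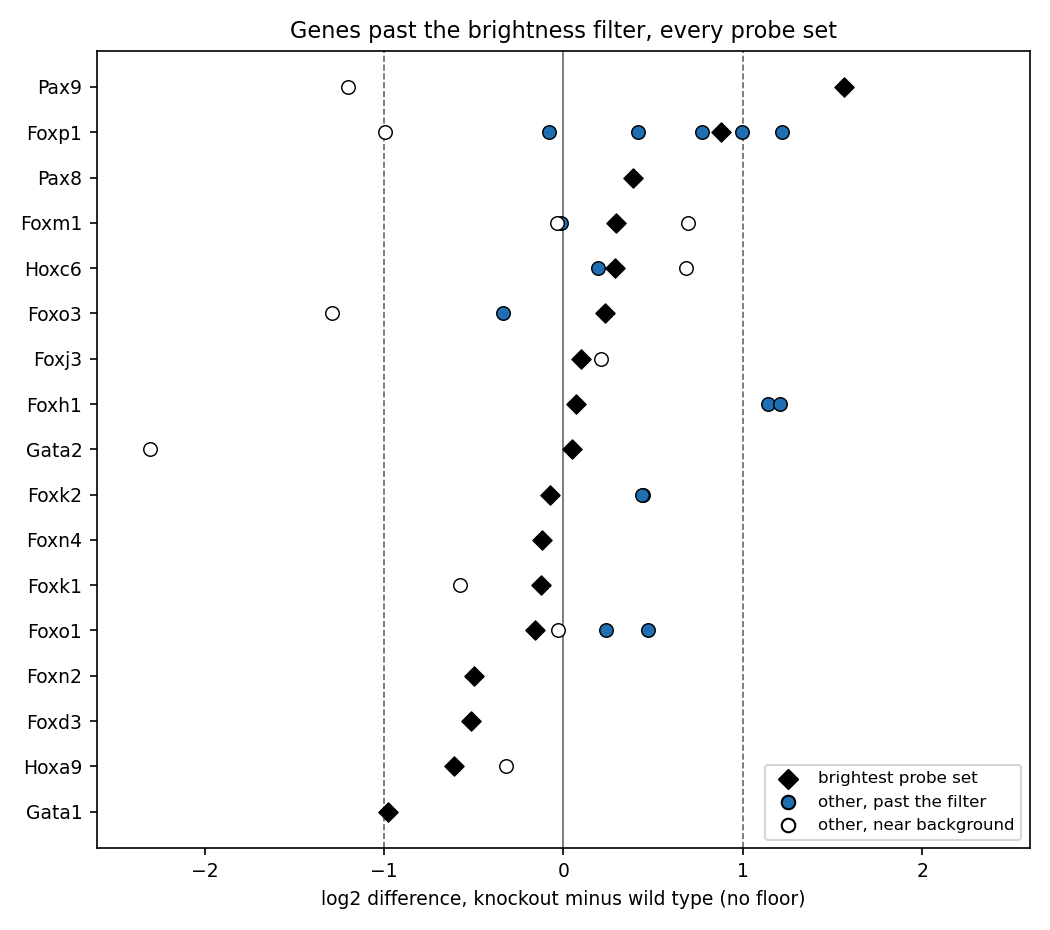
Log2 difference (knockout minus wild type, no floor) of every probe set of the 17 genes past the brightness filter; diamonds mark the brightest probe set, blue points other probe sets past the filter and open points those near background, and dashed lines mark 2-fold. Only the diamond of Pax9 (1.56) lies beyond a dashed line, while both blue points of Foxh1 (1.14 and 1.21) and 1 of Foxp1 (1.22) do, as do open points of Gata2 (-2.30), Foxo3 (-1.29) and Pax9 (-1.20) in the other direction.

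Large ratios among the dim lineage factors were close in share to those among all dim genes. Without a floor, 22 of 69 (31.9%) were at least 2-fold apart between the arrays, against 29.4% of 5024 genes near background. In the knockout 14 were lower (20.3%, against 16.1%) and 8 higher (11.6%, against 13.3%). Foxj2, with 133.6 in the knockout against 5.01 in the wild type, and Foxc2, with 10.6 and 132, were the extremes among those with 1 value close to the background level. Foxj2 had a second probe set at 14.03 and 22.1, in the opposite direction. The robust SD of the log2 difference was 0.84 over all genes near background without a floor and 0.42 over all genes past the filter with it. No fold is given for these genes, since both values are below background.

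**Figure D4:**
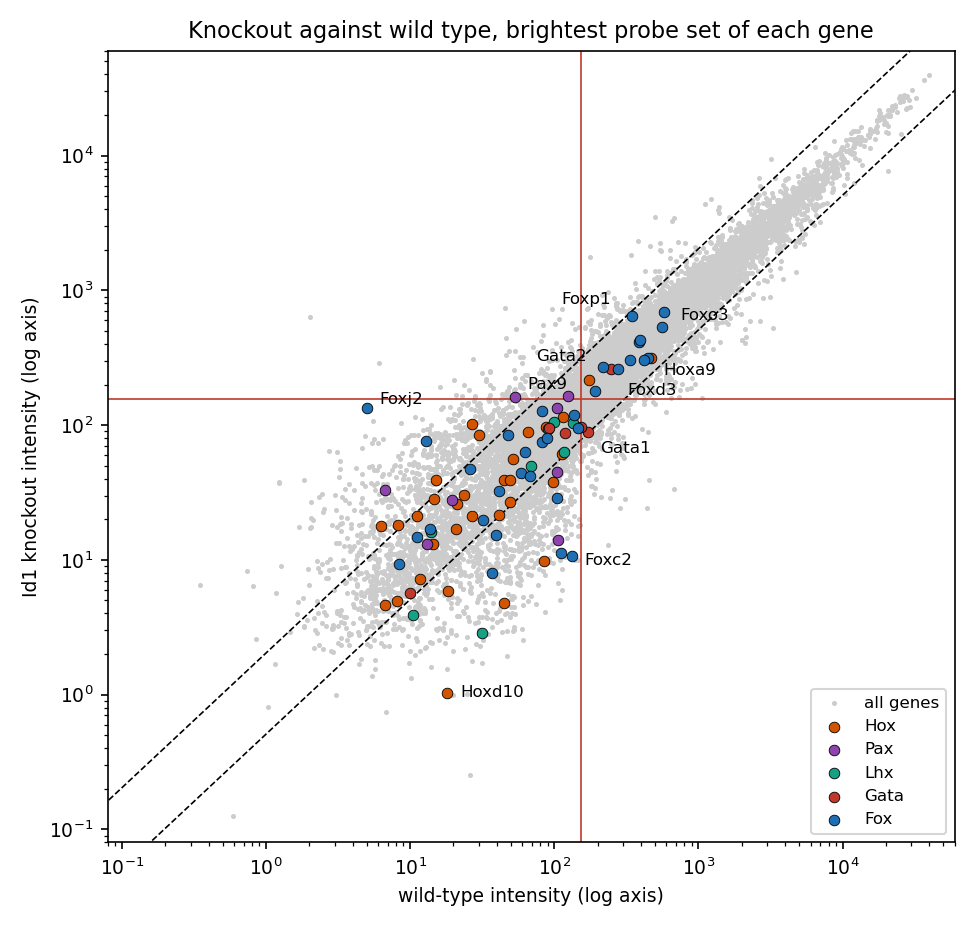
Knockout intensity against wild-type intensity (both axes log) of the brightest probe set of each gene, with all genes in grey and lineage factors coloured by family; red lines are the array medians and dashed lines mark 2-fold after centring. Past both red lines the coloured points stay between the dashed lines, and below them they scatter with the grey ones on either side of them.

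Among 21 measured genes of Hox, LIM and Gata cofactors and Cdx factors, 8 were above background on both arrays (against 51.8% of all genes) and 11 (52.4%, against 40.5% of all genes) near it. Of the 10 past the filter, 3 were at least 2-fold higher in the knockout (background 3.92%) and none lower. These were Lmo4, a LIM-only protein that competes with Lhx factors for Ldb1 (237 against 65.1, 3.58-fold), and Ssbp3 (780.2 against 269, 2.85-fold) and Ssbp2 (277 against 125, 2.18-fold), which stabilise Ldb1 complexes. Lmo4 had 1 probe set, both probe sets of Ssbp3 were past 2-fold higher, and the second probe set of Ssbp2 was near background at 11.8 and 39.1. Lmo4 and Ssbp2 passed the filter through the knockout array only, where they were high. The list was chosen with earlier results of these data known, so its share beside 3.92% is no test of enrichment. Ldb1, the adaptor that links LIM-homeodomain proteins, read 376 and 482 (log2 difference -0.38), and the Hox partners Pbx2 and Pbx3 had log2 differences of 0.14 and 0.57. The median over the 10 was 0.05.

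Polycomb and trithorax complexes are known to govern lineage genes. Of 24 Polycomb genes 19 were above background on both arrays, against 51.8% of all genes. Of the 20 past the filter 1 was at least 2-fold higher and none lower, against 3.92% of all genes in each direction, and their median log2 difference was -0.16. The catalytic subunit gene Ezh2 read 1706 and 1807, Suz12 1507 and 1628, Eed 2903 and 3772, and the ubiquitin ligase gene Rnf2 1528 and 1574. The 1 past 2-fold was Ring1, a second ubiquitin ligase of the same complex, at 167 in the knockout against 35.9 in the wild type. This was at least 3.46-fold higher against the floor, by 1 probe set. Its knockout value lay just over the level of 155.0 and its wild-type value below the floor. Ring1 thus passed the filter through the knockout array only, as a dim gene with 1 value near the level. Of 7 trithorax-group genes, 6 passed the filter and none was past 2-fold (median -0.41), with Wdr5 the furthest at 2158 against 3955 (log2 difference -0.90).

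Promoter sequences of 4 genes are shown because CpG dinucleotides in promoters are where Polycomb and trithorax proteins are known to gather, and because these genes span the range of signal: Foxp1 and Foxd3 above background with opposite differences, Hoxa9 above background by 1 of its 2 probe sets, and Hoxd13 below the floor on both arrays (7.26 and 11.8). Each run holds the 250 bases before the most upstream start that the RefSeq promoter table (GRCm38.p6) lists for the gene, 5′ to 3′ on the gene's strand, in lower case with every CG in capitals.
Foxp1: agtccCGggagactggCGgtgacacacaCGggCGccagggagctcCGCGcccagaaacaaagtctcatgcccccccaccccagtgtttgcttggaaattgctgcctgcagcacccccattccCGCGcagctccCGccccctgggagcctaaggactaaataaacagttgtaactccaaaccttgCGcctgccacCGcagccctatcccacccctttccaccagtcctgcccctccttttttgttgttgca
Foxd3: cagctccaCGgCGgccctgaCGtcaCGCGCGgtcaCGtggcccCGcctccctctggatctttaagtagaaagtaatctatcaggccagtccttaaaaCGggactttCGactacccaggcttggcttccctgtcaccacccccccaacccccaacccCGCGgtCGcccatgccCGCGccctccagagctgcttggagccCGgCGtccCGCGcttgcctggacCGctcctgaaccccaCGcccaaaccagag
Hoxa9: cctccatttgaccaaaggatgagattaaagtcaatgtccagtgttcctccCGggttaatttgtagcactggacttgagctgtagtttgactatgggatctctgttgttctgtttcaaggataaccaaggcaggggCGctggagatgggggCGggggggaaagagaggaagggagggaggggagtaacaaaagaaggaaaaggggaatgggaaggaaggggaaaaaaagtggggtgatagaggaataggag
Hoxd13: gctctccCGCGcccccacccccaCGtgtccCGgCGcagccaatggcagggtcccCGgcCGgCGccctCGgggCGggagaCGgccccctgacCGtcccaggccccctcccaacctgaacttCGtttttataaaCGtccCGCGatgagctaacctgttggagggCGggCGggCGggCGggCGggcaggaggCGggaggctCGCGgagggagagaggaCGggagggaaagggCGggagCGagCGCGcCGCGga
They lie at chr6:99520994-99521243 on the minus strand (Foxp1), chr4:99656049-99656298 on the plus strand (Foxd3), chr6:52227371-52227620 on the minus strand (Hoxa9) and chr2:74667975-74668224 on the plus strand (Hoxd13), each directly upstream of a listed start. The Foxp1 run lies inside the gene's annotated span, which ends at 99522746, whereas the other 3 runs abut the gene's edge. Foxp1 held 11 CG, Foxd3 21, Hoxa9 3 and Hoxd13 31, against a median of 6 over 27025 promoters of the same length (interquartile range 2 to 16), and 91.7% of those promoters held at least 1. The table held a promoter for 56 of the 86 genes (65.1%), too few for a comparison over the whole group, which would be void.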

How the data were processed

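RNA from 1 Id1-/- and 1 wild-type ES cell culture was measured on 1 single-channel array each. Per the labels, RNA was extracted with RNeasy and 1 ug of it carried a biotin label. The authors deposited 1 linear intensity per probe set, on a scale shared by both arrays; how that scale was reached is not given in the sources used here, and detection calls were not used. Controls (64 probe sets) were left out. Of 22626 others, the 2016 platform annotation gave 20380 exactly 1 symbol, 691 several and 1555 none. All 86 genes matched the RefSeq gene table (GRCm38.p6), used for chromosomes.

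Log2 intensities were centred on the median of each array, which removed a shift of 0.02. The brightest probe set (highest mean log2) stood for a gene. The floor, background level and 2-fold threshold are given in the text. No test was made, since there was 1 array per genotype. The steps were checked on simulated data, with large changes put into bright genes of 1 probe set. The recovery of changes in dim genes or in genes with several probe sets was not checked. Every gene of the families is accounted for; those above background, at its edge or furthest from 0 are given with values. The genes and lists were chosen with earlier results of these data known. Alternatives covered scaling, floor, background level, probe set choice, the symbol rule and the fold threshold. Tools were Python 3.11.15, pandas 2.3.3, numpy 2.4.6, statsmodels 0.14.6 and matplotlib 3.10.9. The number of arrays limits the precision.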

Additional observations from a re-analysis of the deposited data

Results flagged for a closer look

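A probe set outside the comparison gave signal above background on the knockout array only and names a forkhead gene. It is assigned to Tex52, Pebp1 and Foxm1 together, so it was not used for Foxm1, and it read 237 in the knockout against 149.97 in the wild type. It is listed because the gene comparison left it out although it carries signal; which of the genes gives the signal was not tested. The other unused probe sets that name a Hox gene, 2 of Hoxd3 and Hoxd4 together, 1 of Hoxb7 and Hoxb8 together and 1 of the antisense gene Hoxa11os, were below the background level on both arrays.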

How the results depend on the processing

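The count of 69 genes near background ran from 51 to 97 over 13 alternatives and stayed within 1.5 times of 69 under each. The 51 came with the level at the 40th percentile (against 29.7% of all genes). The 97 were probe sets of 128 (against 45.0% of all probe sets of 1 gene). The 14 genes above background on both arrays ran from 10 (median over probe sets, against 45.3% of all genes) to 19 (level at the 40th percentile, against 61.2%). When each probe set was counted, 27 of 128 were above it (against 47.2% of all probe sets of 1 gene). With the level at the 95th percentile of the receptor probe sets, 13 genes were above it on both arrays (against 49.9% of all genes) and Hoxc6 left that group. The median log2 difference ran from -0.12 to 0.23. The count of 1 gene at least 2-fold higher was 3 with the level at the 40th percentile (Pax9, Foxj2 and Hoxb9, against 4.79% of all genes past the filter). It was 4 when each probe set was counted (against 4.20% of probe sets past the filter). At 1.5-fold it was 2 (Pax9 and Foxp1, against 10.5% of all genes past the filter). It was 0 with the level at the 60th percentile, the floor at the 40th percentile, the median over probe sets or a 3-fold threshold (against 3.38%, 3.09%, 3.95% and 1.45%). The count of 0 genes at least 2-fold lower was 5 with the level at the 40th percentile (against 4.83% of all genes past the filter). These were Foxb2, Foxc2, Foxi1, Pax3 and Pax7, all with the knockout value at the floor. At 1.5-fold the count was 2 (Gata1 and Hoxa9, against 11.5% of all genes past the filter). Leaving out the X-linked genes, an alternative chosen after seeing the data, left each count within 1.5 times. Of 119 reruns of the log2 differences of the 17 genes past the filter, 109 moved by less than 0.22 and 10 by more. Scaling and most floor or suffix settings could hardly move a value, so 109 of 119 is no measure of stability. The larger moves came with the median over probe sets, and for Pax9 also with the floor at the 40th percentile. Under that median they were those of Foxh1, Foxk1, Foxk2, Foxm1, Foxo1, Foxo3, Foxp1, Gata2 and Pax9. The 1 called difference (Pax9) did not change sign. With the median over probe sets 4 uncalled genes did: Foxk2 went from -0.08 to 0.39, Foxo1 from -0.16 to 0.26, Foxo3 from 0.23 to -0.33 and Gata2 from 0.05 to -1.07. Gata2 was near background on both arrays under that setting, so it was not counted as lower. The 3 other scalings moved a gene by at most 0.04. No paired analysis was possible because there was 1 array per genotype.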

Other observations

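Homeobox genes of other families, such as Dlx, Irx, Nkx, Otx and Tlx, gave a similar share of dim genes. Of 51 measured, 41 (80.4%, against 40.5% of all genes) were near background on both arrays. Above it on both were 8, against 51.8% of all genes. Otx2, a factor of the anterior epiblast and forebrain, read 856 in the knockout against 451 in the wild type (1.87-fold higher), and Gbx2, an ES cell and hindbrain factor, 332 and 285. Of the 10 past the filter, 1 was at least 2-fold lower and none higher, against 3.92% of all genes past the filter in each direction. It was Nkx2-6, a pharyngeal and heart gene, at 167 in the knockout against 365 in the wild type (2.22-fold lower, 1 probe set). The median log2 difference over the 10 was -0.12. Tlx2 (343 and 365) and Six4 (329 and 315) were above background with little difference.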
